A study of Mus musculus with 36 samples.

Results

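Mature NK cells of the spleen that lack 3 inhibitory receptors were compared with mature NK cells that carry all 3, in mice without B2m. The 6 libraries, 3 of each kind, were taken by genotype and sort gate out of the 36 libraries of the series, of which 18 stand in the same table of sorted subsets. All sorted cells were CD27-CD11b+. Triple-positive (TP) cells were Ly49C+Ly49I+NKG2A+, triple-negative (TN) cells were Ly49C-Ly49I-NKG2A-, and single-positive (SP) cells were Ly49C-Ly49I+NKG2A-. Knockout (KO) mice were B2m-/-, a deletion carried by their NK cells as well as by all other cells, and wild-type (WT) mice were C57BL/6 (B2m+/+). The 3 KO SP libraries and the 6 WT TN and TP libraries are used beside the KO comparison. The titles call the replicates biological and name a mouse. They do not say whether TN and TP libraries with the same number came from the same animal, nor the age, the sex or, for KO mice, the background strain.

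B2m encodes the light chain without which most MHC class I molecules do not reach the cell surface. Ly49C, Ly49I and the NKG2A-CD94 pair are inhibitory receptors for MHC class I, and NK cells that carry a receptor for the class I molecules of their own host become more responsive, a process called education. In a B2m-/- host these receptors meet little ligand, so the TN and TP comparison there follows the receptors with little of the class I signal. Ly49 receptors are encoded by the Klra genes, NKG2 receptors by Klrc genes and NKR-P1 receptors by Klrb1 genes, which lie together in the natural killer gene complex.

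The genotype and the gate were visible in the RNA. B2m (ENSMUSG00000060802) stood between 73.9 and 128 TPM (transcript abundance normalized for gene length and library size) in the 9 KO libraries and between 2915 and 3420 TPM in the 9 WT libraries. The Ly49C gene Klra3 (ENSMUSG00000067591) had 303, 290 and 433 TPM in KO TP cells but 1.02, 0.27 and 0.71 TPM in their TN counterparts. Klrc1 (ENSMUSG00000030167), which encodes NKG2A, was at 980, 901 and 914 TPM in TP and at 17.0, 20.5 and 18.2 TPM in TN cells. The Ly49I gene Klra9 (ENSMUSG00000033024) had 1254, 1150 and 1319 TPM in TP against 172, 129 and 174 TPM in TN cells. The gate selected on the proteins of these 3 genes, so their falls describe the sort. Klra9 was still measurable in TN cells, with a mean 7.84-fold below that of TP cells, and reads can be shared between near-identical Ly49 genes. The 2 other gate genes had adjusted p above 0.05. Cd27 was at 128 to 159 TPM in TP against 184 to 239 TPM in TN cells (log2 change 0.57, adjusted p 0.0844), with no overlap, and Itgam, which encodes CD11b, had a log2 change of -0.29 (adjusted p 0.1385).

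Between KO TN and KO TP cells 63 genes were called at an adjusted p under 0.05, which is 0.524% of the 12018 genes tested with limma on log2(TPM + 1). TN cells were higher for 29 genes (0.241% of those tested) and lower for 34 (0.283%). A change of at least 2-fold on the log2(TPM + 1) scale was found for 9 of the higher and 28 of the lower genes. The 3 TN and 3 TP libraries did not overlap for any of the 63, as was so for 13.2% of all tested genes. Genes of lectin-like receptors (symbols starting with Klr) made up 14 of the 63, 9 higher and 5 lower, out of 26 tested. Of these 5, Klra3, Klrc1 and Klra9 are gate genes, whose falls the sort fixed. A further 12 of the 34 lower genes are markers of other blood cells. In bulk libraries a smaller share of cells with a transcript and less transcript per cell cannot be told apart. The count was 40 without KO TP replicate 2, and 33 when the fit held the 6 compared libraries alone. Each of 34 genes remained called whichever of the 6 libraries was left out.

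Ly49 genes changed in both directions, and the 250 bases before the start sites of 4 of them are shown to compare 2 genes of the gate, whose fall the sort fixed, with 2 genes that rose. Klra3 and Klra9 encode the sorted inhibitory receptors and were lower in TN cells. Klra4 encodes Ly49D and Klra8 encodes Ly49H, both activating receptors, and both were higher. The windows are from RefSeq (GRCm38.p6), all on the minus strand, at chr6:130337627-130337876 for Klra3, chr6:130193113-130193362 for Klra9, chr6:130067272-130067521 for Klra4 and chr6:130129899-130130148 for Klra8. Capitals mark AAGCAATTTCCTCTTTT, the longest run of letters that all 4 windows share.
Klra3: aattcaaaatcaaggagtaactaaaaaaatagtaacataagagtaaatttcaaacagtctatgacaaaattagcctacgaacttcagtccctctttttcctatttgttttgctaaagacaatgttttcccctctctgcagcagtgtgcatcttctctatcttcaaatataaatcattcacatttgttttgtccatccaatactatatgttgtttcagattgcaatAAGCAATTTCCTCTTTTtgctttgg
Klra9: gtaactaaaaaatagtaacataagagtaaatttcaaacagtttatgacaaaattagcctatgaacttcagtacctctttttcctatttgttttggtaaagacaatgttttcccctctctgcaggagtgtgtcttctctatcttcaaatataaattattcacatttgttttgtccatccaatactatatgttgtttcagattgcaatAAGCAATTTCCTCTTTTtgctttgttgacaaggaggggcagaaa
Klra4: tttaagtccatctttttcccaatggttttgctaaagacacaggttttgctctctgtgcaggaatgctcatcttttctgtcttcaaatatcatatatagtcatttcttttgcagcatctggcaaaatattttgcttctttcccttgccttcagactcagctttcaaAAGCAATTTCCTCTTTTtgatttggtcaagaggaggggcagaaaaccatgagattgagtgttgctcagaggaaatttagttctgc
Klra8: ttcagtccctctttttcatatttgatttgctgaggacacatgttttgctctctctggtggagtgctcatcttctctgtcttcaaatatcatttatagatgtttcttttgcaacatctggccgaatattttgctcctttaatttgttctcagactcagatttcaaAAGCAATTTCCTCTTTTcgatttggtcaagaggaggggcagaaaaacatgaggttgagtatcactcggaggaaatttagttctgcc
Searched on both strands, this run of 17 bases was in 8 of 32851 windows of the same length (0.0244%). Of these windows, 7 belong to 6 Klra genes (Klra3, Klra4, Klra6, Klra8, Klra9 and Klra17) and the other to Gm52487, out of 13 windows of 11 Klra genes in the table. In global alignments the Klra3 and Klra9 windows were 83.3% identical and the printed Klra4 and Klra8 windows 84.5%, whereas the 4 pairs across these were 39.5% to 47.8% identical. A further window of Klra8 also holds the run but was 51.9% identical to that of Klra4. The run was defined from 4 windows picked by hand, so its place before both kinds of gene is no result. Of the 5 higher genes with a window, Klra4 and Klra8 hold it, and Klra1, Klra7 and Klra10 hold no exact copy. The windows of the higher genes did not form 1 group, with Klra10 at 47.6% and Klra1 at 45.6% identity to Klra4 and Klra10 at 51.3% to Klra3. Klra7 has 2 windows, at 45.1% and 74% identity to Klra4. The second of these was 74.7% identical to the printed Klra8 window and 37.9% to Klra3. The 2 Klra8 windows overlap but were 59.7% identical, so these figures depend on the start site taken.

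Among the 11 Ly49 genes tested, 6 were higher and 2, the gate genes Klra3 and Klra9, were lower in KO TN cells. The median log2 change of the 11 was 0.79 against -0.03 over all genes tested. Klra4 (ENSMUSG00000079852) was at 214, 218 and 259 TPM in TP, 556, 620 and 681 TPM in SP and 1088, 851 and 1055 TPM in TN cells. The TN libraries stood 4.33-fold above the TP libraries in mean TPM, without overlap (log2 change 2.11, SE 0.13, adjusted p 2.51e-08). Klra13-ps, an Ly49 pseudogene with the highest level of the family, was at 1914, 1663 and 1750 TPM in TP against 4733, 4255 and 4669 TPM in TN cells (log2 change 1.36, adjusted p 1.41e-08). Klra1, which encodes the inhibitory receptor Ly49A, was at 38.1, 44.2 and 44.8 TPM in TP against 142, 104 and 124 TPM in TN cells (1.51, adjusted p 0.000131). These 3 genes were highest in all 3 TN libraries, lowest in all 3 TP libraries and intermediate in all 3 SP libraries.

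Klra10 had a log2 change of 1.13 (adjusted p 0.000345), from 134 to 165 TPM in TP up to 322 to 346 TPM in TN cells. Klra7, which encodes the inhibitory receptor Ly49G, was at 559, 606 and 571 TPM in TP against 1061, 923 and 933 TPM in TN cells (0.75, adjusted p 0.00015). Klra8 was at 730, 704 and 927 TPM in TP against 1316, 1212 and 1533 TPM in TN cells (0.79, adjusted p 0.0107). Its call was lost without KO TP replicate 1 or KO TP replicate 2 (adjusted p 0.0835 each) and without KO TN replicate 3 (0.0892). It was also lost without an intensity trend (0.0595) and with only the compared libraries in the fit (0.219). Klra5, Klra6 and Klra14-ps were not called. Klra6 was at 25.4 to 32.8 TPM in TP and 49.5 to 59.6 TPM in TN cells without overlap (0.82, adjusted p 0.4251), while Klra14-ps lay at 419 to 460 TPM in TP against 390 to 417 TPM in TN cells. Klra2 and Klra17 were at 1.34 TPM or less in the KO TP and TN libraries and were not tested.

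**Figure D1:**
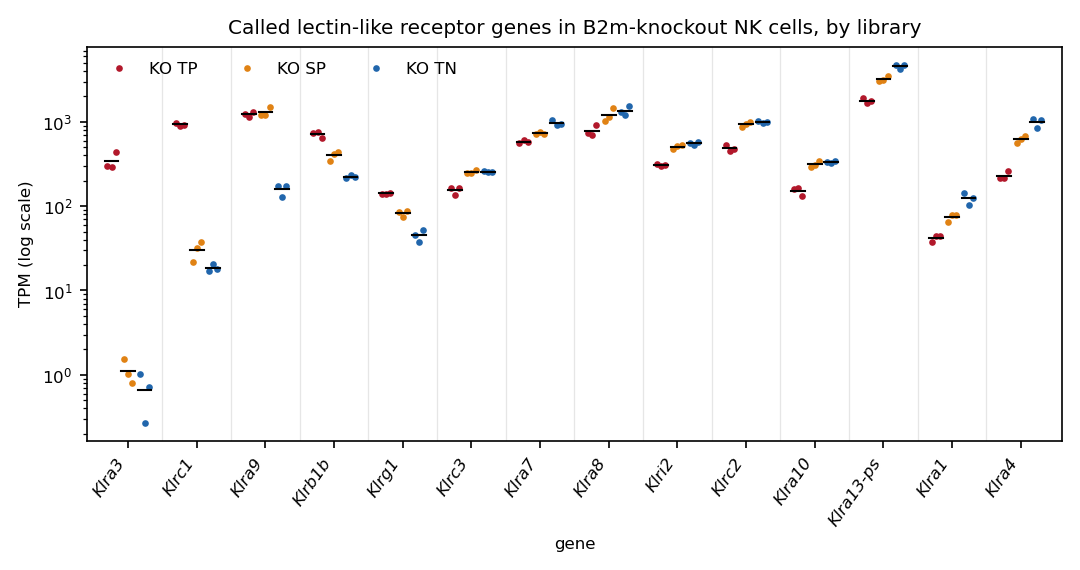
TPM (log axis) of the 14 called lectin-like receptor genes in each KO library, with TP, SP and TN libraries side by side for each gene, black bars at the means of 3 libraries and genes ordered by the fitted change from TP to TN. The 5 genes on the left were lower in all TN than in all TP libraries, and the 9 on the right were higher.

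Of the 5 NKG2 and CD94 genes, Klrc2 and Klrc3 were higher and Klrc1, a gate gene, was lower. Klrc2 encodes the activating receptor NKG2C. It was at 538, 456 and 478 TPM in TP, 865, 931 and 995 TPM in SP and 1016, 979 and 986 TPM in TN cells (log2 change 1.02, adjusted p 2.43e-06). Klrc3, which encodes NKG2E, was at 166, 134 and 162 TPM in TP against 260, 255 and 251 TPM in TN cells (0.73, adjusted p 0.0311), and leaving out any 1 of the 6 libraries ended its call (adjusted p 0.0819 to 0.188), as did a fit without a low-value filter (0.0635), without a trend (0.109) or with only the compared libraries (0.0718). TN and SP libraries of both genes lay above all TP libraries. Klrd1, which encodes their partner CD94, was at 1327 to 1410 TPM in TP against 1283 to 1561 TPM in TN cells, and Klrk1, which encodes NKG2D, at 1692 to 1751 and 1855 to 2096 TPM. Neither was called. Reads of Klrc genes can be shared within the family as well.

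Among 11 NKR-P1 and other lectin receptor genes 1 was higher and 2 were lower. Klri2, whose product pairs with that of Klre1, was at 313, 299 and 307 TPM in TP against 566, 533 and 571 TPM in TN cells (log2 change 0.86, adjusted p 1.18e-06), whereas Klre1 itself was at 1105 to 1168 TPM in TP against 1087 to 1285 TPM in TN cells. Klrb1b encodes an inhibitory receptor for the lectin Clr-b. It was at 727, 763 and 639 TPM in TP, 347, 411 and 439 TPM in SP and 215, 235 and 223 TPM in TN cells, a 3.17-fold lower mean in TN cells (-1.66, SE 0.11, adjusted p 8.64e-08). Clec2d, the gene of that ligand, lay between 97.9 and 133 TPM in TP and between 99.2 and 126 TPM in TN cells. Klrg1, an inhibitory receptor gene that marks late NK cell maturation, was at 141, 141 and 144 TPM in TP, 85.4, 74.7 and 87.7 TPM in SP and 45.1, 37.2 and 52.4 TPM in TN cells, so that the 3 subsets did not overlap. Klrb1c, which encodes the NK1.1 antigen, was at 1547 to 1745 TPM in TP against 1597 to 1672 TPM in TN cells and was not called.

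Genes of maturation, homing and transcription factors were the other main group of calls. Of 13 maturation genes, 1 was higher and 3, Klrg1, Cx3cr1 and Ly6c2, were lower, and 12 of the 13 had an unadjusted p under 0.05, as 6.43% of all tested genes did. Of 20 homing receptor and integrin genes, 3 were higher (Ccr2 and Itgax among them) and 2 lower (Cx3cr1 and Itga1). Of 24 transcription factor genes, Tcf7 was higher and Id2 lower. The median log2 changes of these 3 lists were -0.26, -0.07 and -0.13, so their members moved both ways.

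Tcf7 encodes TCF-1, a factor of early NK cell development. It was at 76.5, 79.5 and 74.2 TPM in TP, 99.2, 88.0 and 93.4 TPM in SP and 143, 151 and 167 TPM in TN cells (log2 change 0.99, SE 0.10, adjusted p 3.45e-05). Id2, an inhibitor of E proteins that NK cells require, was at 1000, 1049 and 1001 TPM in TP against 688, 686 and 638 TPM in TN cells (-0.60, SE 0.07, adjusted p 0.000202). Each of these genes kept its 3 subsets apart, with SP cells in between. Eomes, at 341 to 407 TPM in TP against 441 to 512 TPM in TN cells, had a log2 change of 0.34 (adjusted p 0.0969), and Tbx21, which encodes T-bet, one of -0.20 (adjusted p 0.747).

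Cx3cr1, the fractalkine receptor gene of mature NK cells, was at 85.5, 70.6 and 72.1 TPM in TP and 30.0, 20.4 and 25.3 TPM in TN cells (log2 change -1.57, adjusted p 0.000316). Ly6c2, which encodes the surface protein Ly6C, was at 969, 917 and 1092 TPM in TP against 483, 326 and 492 TPM in TN cells (-1.21, adjusted p 0.000182). With only the compared libraries in the fit the calls of Ly6c2 (adjusted p 0.131) and Ccr2 (0.108) were lost. Ccr2, a receptor for monocyte chemoattractants, was at 140, 121 and 153 TPM in TP against 240, 216 and 255 TPM in TN cells (0.78, adjusted p 0.00139). Itgax, which encodes CD11c, was at 377, 388 and 336 TPM in TP against 694, 683 and 591 TPM in TN cells (0.84, adjusted p 6.22e-05). Itga1, which encodes CD49a, was at 5.92 to 7.83 TPM in TP and 0.90 to 1.28 TPM in TN cells (-1.90, adjusted p 0.019), and every fit that left out 1 of the 6 libraries ended its call (adjusted p 0.0509 to 0.0967), as did a pseudocount of 0.1 (0.262). CD49a also marks group 1 innate lymphoid cells, and the summed TPM of the 9 listed markers of those cells was 26.1 to 42.0 in TP and 10.1 to 16.8 in TN libraries. The part of such cells in the result was not tested.

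**Figure D2:**
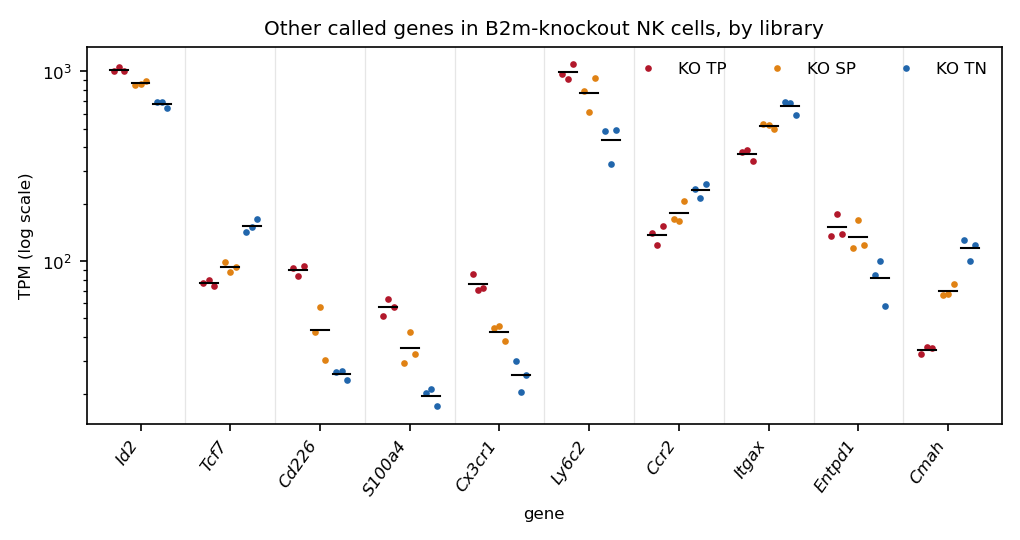
TPM (log axis) of 10 further called genes in each KO library, arranged as TP, SP and TN for each gene, with black bars at the means of 3 libraries. Id2, Cd226, S100a4, Cx3cr1, Ly6c2 and Entpd1 were lower in all 3 TN than in all 3 TP libraries, and Tcf7, Ccr2, Itgax and Cmah were higher.

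Of 5 nectin-binding receptor genes, Cd226 alone was called. It encodes the activating receptor DNAM-1 and was at 92.1, 83.2 and 94.3 TPM in TP, 42.6, 57.7 and 30.0 TPM in SP and 26.0, 26.5 and 23.8 TPM in TN cells, so the TN libraries were close together and far below TP. The inhibitory receptor gene Tigit, which shares ligands with it, was at 41.6, 82.0 and 42.9 TPM in TP and 93.4, 140 and 72.9 TPM in TN cells, where the groups overlapped (log2 change 0.89, adjusted p 0.5978). Crtam was at 5.27 to 10.4 TPM in TP and 17.8 to 20.5 TPM in TN cells without overlap (1.15, adjusted p 0.1012). Cd96 had a log2 change of 0.11 and Pvrig one of -0.49. Of 9 entries of checkpoint genes tested, Entpd1, which encodes the ectoenzyme CD39, was lower. It was at 135, 178 and 140 TPM in TP and 85.1, 101 and 57.8 TPM in TN cells (-0.91, adjusted p 0.0446). Only leaving out KO TN replicate 2 kept its call among the 6 such fits, and the others gave an adjusted p of 0.0973 to 0.244. It was also lost under median-of-ratios rescaling (0.0544), quantile normalization (0.0652), no low-value filter (0.0925), no trend (0.12), only the compared libraries in the fit (0.405) and removal of other-cell markers (0.0552). Lag3 was at 4.98 to 5.80 TPM in TP and 2.05 to 7.74 TPM in TN cells, and Pdcd1 and Havcr2 were at 0.56 TPM or less in each of these libraries.

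Cmah, the enzyme that converts one common sialic acid into another, was the called gene among 14 sialic acid genes tested. It was at 32.7, 35.3 and 34.9 TPM in TP, 66.4, 67.1 and 75.5 TPM in SP and 130, 99.8 and 121 TPM in TN cells, and the 3 subsets did not overlap. The other 13 genes had log2 changes from -0.31 to 1.42 and none was called, with Nanp and St3gal6 at unadjusted p of 0.0347 and 0.0108. Ctla2a, a cysteine protease inhibitor gene of the immune system, was at 138, 157 and 137 TPM in TP against 262, 262 and 296 TPM in TN cells (log2 change 0.92, adjusted p 0.00015). Cmya5 was low in both, at 1.78, 2.30 and 2.90 TPM in TP and 7.39, 8.30 and 8.18 TPM in TN cells (1.44, adjusted p 0.0198), and of the 6 fits with 1 library left out only that without KO TP replicate 3 kept its call (adjusted p 0.0653 to 0.101 in the others). With only the compared libraries in the fit it was lost too (0.131).

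Further called genes are named here after their values were seen. Lower in TN cells were Adgrg5, an adhesion receptor gene (20.98, 24.0 and 21.2 TPM in TP against 5.17, 7.23 and 9.04 TPM in TN cells), and S100a4, a calcium-binding protein gene (51.5, 63.5 and 57.3 TPM against 20.2, 21.2 and 17.2 TPM). Kcnj8, which encodes a subunit of potassium channels that ATP closes, was at 144, 150 and 143 TPM in TP and 52.8, 59.4 and 59.8 TPM in TN cells. Hopx fell by 1.05, and Gpc1, a heparan sulfate proteoglycan gene, fell by 1.00 on the log2 scale. Higher in TN cells were Igf2r, the mannose 6-phosphate receptor gene, from 66.1 to 75.2 TPM in TP up to 97.4 to 108 TPM in TN cells, and Arl5c, from 40.4 to 50.2 up to 75.3 to 84.8 TPM. With 1 library left out, Adgrg5 lost its call without KO TN replicate 1 and KO TP replicate 2 (adjusted p up to 0.0653), and S100a4 without KO TN replicate 3, KO TP replicate 2 and KO TP replicate 3 (up to 0.069). For Arl5c only the fit without KO TP replicate 1 kept the call (up to 0.132 in the others).

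Genes of the killing machinery had differences that did not pass the adjusted threshold, with log2 changes from -0.41 to 1.07 and a median of -0.05. Of 17 granule genes tested with limma, 0 were called and 6 had an unadjusted p under 0.05, beside 0.524% and 6.43% of all tested genes. At that background share 0 calls is no result about a list of this size. Gzma, which encodes granzyme A, was at 9262, 10119 and 10690 TPM in TP against 9215, 8018 and 9032 TPM in TN cells (log2 change -0.20, adjusted p 0.3325). Prf1, the perforin gene, was at 1513 to 1526 TPM in TP against 1206 to 1415 TPM in TN cells without overlap (-0.24, adjusted p 0.3357), and Gzmb had a log2 change of -0.29 (adjusted p 0.2252). Of 12 NK cell marker genes 0 were called and 8 had an unadjusted p under 0.05, beside the same 6.43%, and their summed level was 23471 to 24767 TPM in TP and 21808 to 23492 TPM in TN libraries. Ncr1, which encodes NKp46, was at 1863 to 1946 TPM in TP against 1607 to 1796 TPM in TN cells.

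Calls were also 0 for 7 NKp46, CD16 and adaptor genes, 10 SLAM family genes, 13 chemokine and cytokine genes, 18 regulators of anergy and exhaustion and 15 cytokine receptor genes. In these lists 1, 2, 1, 2 and 6 genes had an unadjusted p under 0.05, to be read against 6.43% of all genes. The same held for 25 proximal signalling genes, 15 MHC class I genes, 16 interferon-stimulated genes and 16 cell cycle genes, with 3, 4, 1 and 0 at that level, and for 15 immediate early and stress genes, with 1. Beside calls for 0.524% of all tested genes, 0 calls is no result about lists of these sizes. Ccl5 was at 6836, 7815 and 7050 TPM in TP against 7211, 6917 and 6301 TPM in TN cells. Ifng was at 42.8 to 54.96 and 43.5 to 51.6 TPM, and Fasl at 179 to 195 and 143 to 181 TPM. The heavy chain gene H2-K1 stayed abundant in these B2m-/- cells, at 5847 to 6211 TPM in TP and 6116 to 6265 TPM in TN libraries, and Ptprc, which encodes CD45, was at 1993 to 2340 and 2152 to 2241 TPM.

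Genes of cytosolic ribosomal proteins had slightly higher values in KO TN than in KO TP cells. This list was chosen after the values were seen and is described without a test of its own. Of 84 such genes tested, 83 had a higher mean log2(TPM + 1) in KO TN than in KO TP cells, as 44.7% of all tested genes did, and Rpl12 was the exception (-0.34). Their median log2 change was 0.29, against -0.03 over all genes, and 83 were higher after median-of-ratios rescaling and after quantile normalization too. All 3 TN libraries lay above all 3 TP libraries for 48 of the 84, against 5.67% of all genes. Limma called 5 of them, all higher, with Rpl26, Rpl4, Rps9 and Rps4x among them. Rps4x was at 904, 922 and 904 TPM in TP against 1318, 1108 and 1146 TPM in TN cells (log2 change 0.38, adjusted p 0.0166). Each of the 5 lost its call in at least 4 of the 6 fits without 1 library, with adjusted p up to 0.202. Rps4x lost it without KO TN replicate 1 or any of the KO TP replicates.

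Together the 84 genes took 5.86%, 6.44% and 6.51% of the summed TPM of the KO TP libraries, 6.88%, 6.59% and 6.78% in KO SP and 8.27%, 7.28% and 7.49% in KO TN. In WT libraries the share was 6.73%, 6.78% and 7.71% in TP and 7.19%, 7.72% and 8.22% in TN cells, where the groups overlapped. The median log2 change between WT TN and TP cells was 0.12, against -0.0095 over all genes tested. Of the 84, 66 were higher in WT TN cells and limma called 0, beside 1.31% of all tested genes. The interaction of genotype and subset called 0 of the 84, which is no result beside 0.025% of all genes. It had 12 of the 84 at an unadjusted p under 0.05, beside 6.27% of all genes. TPM values are shares of a library, so a larger share for these abundant genes leaves less for all others.

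**Figure D3:**
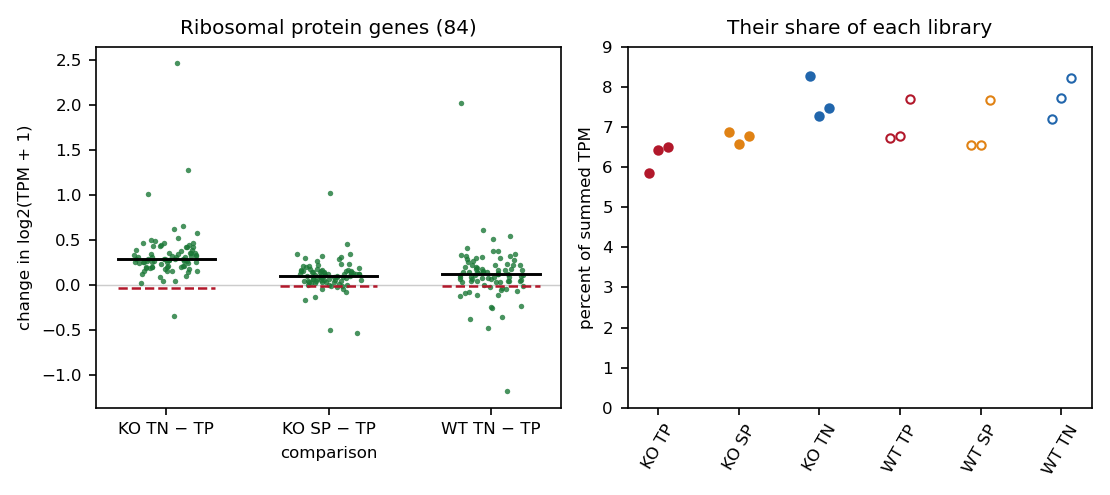
Left, change in log2(TPM + 1) of each of 84 ribosomal protein genes in 3 comparisons (points), with their median (black line) and the median of all genes tested (dashed red line). Right, their share of the summed TPM of each library, with KO libraries filled and WT libraries open; the 3 KO TN libraries stand above the 3 KO TP libraries.

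The 12 markers of other cell types among the 34 lower genes belong to plasma cells, neutrophils and antigen-presenting cells. Igha, the heavy chain gene of IgA, reached 166, 70.5 and 169 TPM across KO TP replicates and was listed at 0 in all 3 KO TN libraries. Igkc, the kappa light chain gene, was at 283, 139 and 240 TPM in TP and 0, 16.0 and 0.32 TPM in TN cells, and Jchain, which joins IgA chains, was at 15.7, 13.5 and 18.8 TPM and 1.21, 0 and 0 TPM. The neutrophil granule genes Ngp, Ltf, Lcn2 and Camp and the calprotectin genes S100a8 and S100a9 each exceeded 4 TPM in every TP library, while no TN library had more than 0.39 TPM of any of them. Ltf, for example, was at 13.8, 11.9 and 44.6 TPM in TP and listed at 0 in TN cells. Lyz2 was at 21.7, 20.2 and 52.7 TPM in TP and 0, 5.15 and 0 TPM in TN cells. The MHC class II genes Cd74 and H2-Ab1 were at 13.6 to 19.0 and 2.22 to 8.23 TPM in TP and at 0.34 to 3.41 and 0 TPM in TN cells. They stand in a list of dendritic cell markers of which 6 were tested, with these 2 lower and Itgax, which NK cells express too, higher. With Itgax in it, that list summed to 381 to 447 TPM in TP and to 618 to 729 TPM in TN libraries.

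All 3 KO TP libraries carried these transcripts. The 16 listed neutrophil markers summed to 71.1, 120 and 253 TPM in KO TP, to 6.08 TPM or less in KO SP and to 1.43 TPM or less in KO TN libraries. The 16 B and plasma cell markers summed to 738, 428 and 622 TPM in KO TP and to 230 to 242 TPM in KO TN, where nearly all came from Ighm (214 to 227 TPM). The 12 monocyte and macrophage markers summed to 31.3 to 62.4 TPM and 5.28 to 13.0 TPM, and 9 T cell markers to 236 to 244 TPM and 195 to 235 TPM. The 4 tested T cell genes and 5 tested erythroid and platelet genes had 0 calls by limma and 0 at an unadjusted p under 0.05. Beside 0.524% and 6.43% of all tested genes, these counts are no result about lists this small. The 9 erythroid and platelet markers summed to 15.35, 25.35 and 79.18 TPM in KO TP and to 9.18 to 29.06 TPM in KO TN libraries. Of the 7 tested neutrophil markers, 6 were called lower in TN cells, and log2 changes ran from -5.38 to -2.58. Other listed markers stayed low in KO TP libraries, with 7 of 16 neutrophil and 2 of 16 B and plasma cell markers under 1 TPM in all 3. Ms4a1 and Cd79a were at 2.47 TPM or less, Ly6g at 0.51 TPM or less, Csf1r at 1.78 TPM or less, and Elane, Fcnb and Cxcr2 at 0. In KO TN libraries Ms4a1, Ly6g, Elane and Fcnb were at 0. In WT TP libraries the neutrophil markers summed to 0.81 TPM or less. The monocyte and macrophage markers summed to 19.99 to 24.28 TPM in WT TP and 11.11 to 19.73 TPM in WT TN libraries. For the B and plasma cell markers these sums were 184.41 to 214.57 and 297.69 to 344.49 TPM. The class II gene H2-Aa was called lower in TN cells by limma in WT (adjusted p 0.015) but not in KO mice (0.0528). The part of other cells in the differences between KO TN and TP libraries was not tested. With the 32 tested markers of other cell types taken out of the fit, an alternative added after the values were seen, 47 genes were called, 27 higher and 20 lower, all among the 63.

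Several of these calls depended on single libraries or on a setting. Igha, Jchain, Ngp, Ltf, Lcn2, S100a8 and S100a9 were called whichever of the 6 libraries was left out. With only the compared libraries in the fit Ltf (adjusted p 0.0621), S100a8 (0.0944), S100a9 (0.0881), Igkc (0.222), Cd74 (0.189), H2-Ab1 (0.194) and Lyz2 (0.289) lost the call. At a pseudocount of 0.1 it was lost for Jchain (0.0879), Camp (0.0957), Igkc (0.07) and Lyz2 (0.19), and Lyz2 also lost it without a low-value filter (0.0764) or a trend (0.0595). Camp was lost without KO TP replicate 1 (adjusted p 0.0819) and without KO TP replicate 2 (0.0524), and Igkc without replicates 1 or 3 of either group (0.0705 to 0.0884). Cd74, H2-Ab1 and Lyz2 were each lost in 5 of the 6 fits, with adjusted p from 0.0608 to 0.103, 0.121 to 0.207 and 0.0796 to 0.179. The fit that kept the call was the one without KO TN replicate 1 for Cd74, KO TP replicate 3 for H2-Ab1 and KO TN replicate 2 for Lyz2.

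**Figure D4:**
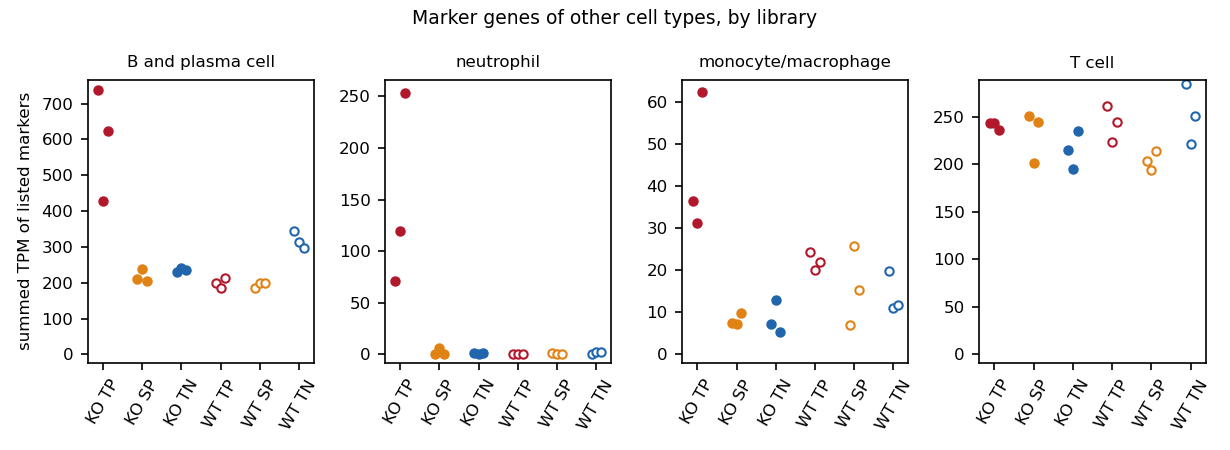
Summed TPM of listed marker genes of 4 other cell types in each of the 18 libraries, with KO libraries filled and WT libraries open. The 3 KO TP libraries stand above the 3 KO TN and 3 KO SP libraries for B and plasma cell, neutrophil and monocyte markers.

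SP cells, which carry Ly49I without the other 2 receptors, mostly lay between the 2 ends. The mean of the KO SP libraries fell between the TP and TN means for 58 of the 63 genes, all 29 higher and 29 of the 34 lower genes, and for 40.8% of all tested genes. Genes with a wide gap leave more room for the SP mean between the ends. The 29 lower genes include the gate genes Klra3 and Klrc1, whose receptors the SP gate excluded as well. The SP means of these gate genes (1.12 and 30.4 TPM) lay near their TN means (0.667 and 18.6 TPM). The 29 also include other-cell markers near 0 in both SP and TN cells, such as Ngp (means 0.16 and 0.13 TPM). The SP comparisons share libraries with that of TN and TP cells, so each is given by its own values. Between KO SP and KO TP cells 24 genes (0.2% of those tested) were called, and between KO TN and KO SP cells 5 (0.0416%). The 5 were Klra9, a gate gene, and Tcf7, Klrg1, Klra13-ps and Klrb1b. From SP to TN the log2 change was 0.71 for Tcf7 (adjusted p 0.0132), -0.88 for Klrg1 (0.0217), 0.50 for Klra13-ps (0.0217) and -0.82 for Klrb1b (0.00653). This count was 3 without KO SP replicate 1 or KO TN replicate 3 and 9 without KO SP replicate 3. Klri2, Klra10 and Klrc2 were near their TN levels in SP cells already, with SP libraries of Klri2 at 481, 520 and 525 TPM beside 566, 533 and 571 TPM in TN cells.

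The same gates in WT mice, whose cells meet MHC class I, gave 157 calls between TN and TP cells (1.31% of those tested). That count was 104 without WT TP replicate 2 and 101 without WT TN replicate 1. The WT and KO comparisons share no libraries. The genes called in both numbered 36, which is 57.1% of the KO list and 22.9% of the WT list, with 17 higher and 19 lower in both. The 19 include the gate genes Klra3, Klrc1 and Klra9, whose falls the sort fixed in both genotypes. Of the 63 KO genes, 61 were counted with the same sign in WT cells, against 54.6% of all tested genes. These 61 include S100a9, S100a8, Ngp, Ltf and Lcn2, which were at 0 TPM in every WT TN and TP library. Their WT change is 0 apart from rounding, so its sign carries no direction. Igha and Camp had the opposite sign. The 27 genes called in KO cells alone held the 12 markers of other cell types, the 5 ribosomal protein genes and 10 others. A call in 1 genotype does not show a difference between them, which the interaction of genotype and subset tests.

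The interaction called 3 genes at an adjusted p under 0.05 (0.025% of those tested), Igha, S100a9 and Ngp, all markers of other cell types. It called 5 when KO TP replicate 1, KO TP replicate 3, KO TN replicate 2 or WT TN replicate 2 was left out and 2 without KO TP replicate 2. Among the 63 genes 28 had an unadjusted p under 0.05, as 6.27% of all tested genes did, and 19 of these were not markers of other cells. The 63 were chosen by the KO change, which is itself a term of the interaction. That choice can raise the count of 28, so no conclusion is drawn from it. For 8 of the 19 the gap between TN and TP cells was wider in WT and for 11 it was wider in KO cells, and none of the 19 had an adjusted p under 0.05. Klrg1 was at 454, 460 and 397 TPM in WT TP and 78.9, 61.6 and 69.3 TPM in WT TN cells, where its KO levels were 141 to 144 and 37.2 to 52.4 TPM. The fitted change was smaller in KO cells, but not past the threshold (interaction 0.98, unadjusted p 0.000128, adjusted p 0.1187). Klra7 went from 271 to 307 TPM in WT TP up to 729 to 928 TPM in WT TN cells, and its fitted rise in KO cells was smaller, again not past the threshold (interaction -0.72, adjusted p 0.0808). Kcnj8 had an interaction of 0.87 (adjusted p 0.3943).

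The fitted changes of Tcf7 and Ccr2 were larger in KO cells, with adjusted p above 0.05 for the difference. Tcf7 was at 111, 114 and 135 TPM in WT TP and 150, 172 and 171 TPM in WT TN cells, a log2 change of 0.45 against 0.99 in KO cells (interaction 0.54, unadjusted p 0.00201, adjusted p 0.451). Ccr2 was at 202 to 216 TPM in WT TP and 247 to 314 TPM in WT TN cells (0.39, against 0.78 in KO; interaction adjusted p 0.7327). Near equal changes in the 2 genotypes were found for Klri2 (0.86 in both), Klra4 (2.11 in KO, 2.08 in WT), Cmah (1.73 and 1.63), Itgax (0.84 and 0.81) and Klrc2 (1.02 and 0.96). Their interactions lay between 0.00 and 0.10, with standard errors from 0.10 to 0.20.

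**Figure D5:**
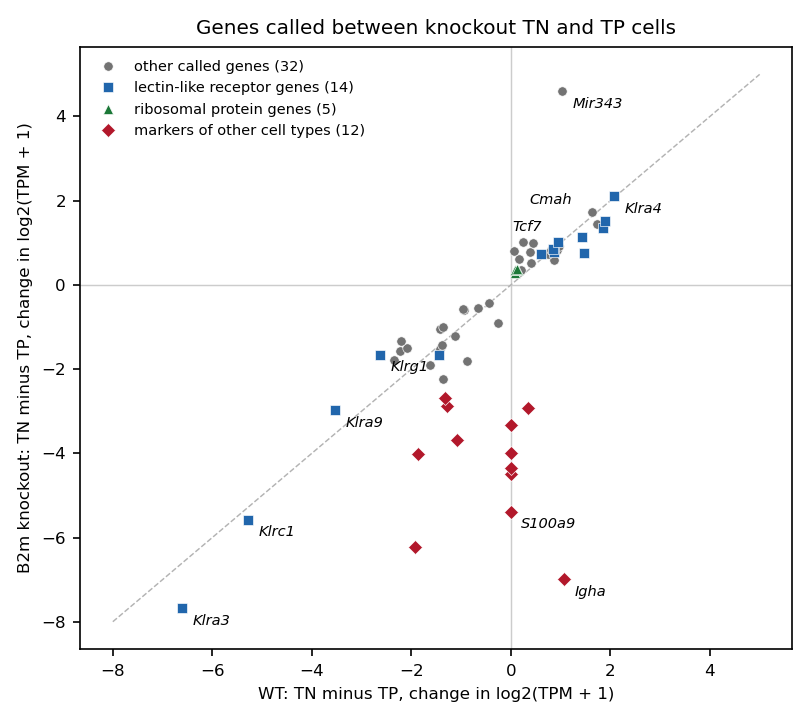
Change in log2(TPM + 1) from TP to TN cells in WT (x axis) and KO mice (y axis) for the 63 genes called in KO mice, with colours and symbols for 4 groups of genes and a dashed line of equal change. All 14 receptor genes, gate genes included, have the same sign in both genotypes, and the 12 markers of other cell types lie below the line.

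Mir343 showed the largest fitted rise of the called genes, on sparse values. Its row showed 0 for every KO TP library, 0, 0 and 4.67 TPM for KO SP and 5.92, 63.2 and 30.7 TPM for KO TN cells (log2 change 4.59, adjusted p 0.0189). Among WT TN and TP libraries it was above 0 in 1 WT TN library, at 7.46 TPM. The call was lost without KO TN replicate 2 (0.126) or KO TN replicate 3 (0.101) and without any of the 3 KO TP replicates (0.0796 to 0.0835). It was also lost at a pseudocount of 0.1 (0.06), at a mean of at least 5 TPM (0.0605) and with only the compared libraries in the fit (0.216). RefSeq (GRCm38.p6) places the hairpin of 75 bases within Ercc2, a DNA repair gene, which lay at 48.1 to 70.8 TPM in KO TP and 39.1 to 61.0 TPM in KO TN libraries, with overlap. The libraries were made from mRNA, so the row does not measure the mature miRNA. That sequence is given with its seed (bases 2 to 8) in capitals.
mmu-miR-343: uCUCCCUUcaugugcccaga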

How the data were processed

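RNA of sorted mouse spleen NK cells was sequenced as mRNA libraries (KAPA mRNA HyperPrep, 50 ng of RNA with an integrity score above 7), per the labels' protocols. The authors deposited TPM values per gene, with STAR, RSEM and GRCm39 named in the submitters' processing notes. TPM keep no sequencing depth, so depth per library is unknown and precision rests on 3 replicates per group. The KO TN and TP libraries list 13130 to 14180 genes above 0, sum to 938012 to 948786 TPM, and carry 1 batch date. Levels within a group correlated across genes with r of 0.932 to 0.954.

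The log2(TPM + 1) scale was used, and it understates changes of low genes. Testing covered the 12018 of 32940 genes that averaged 1 TPM or more across 18 libraries. Limma 3.58.1 (R 4.3.3) fitted 6 group means with an intensity trend, two-sided, with Benjamini-Hochberg adjustment over all tested genes, and the scripts were tested on simulated data. Permuting 3 libraries against 3 exactly, gene by gene, has a smallest p of 0.1, so calls rest on the model. Named genes were the 12 largest rises and 12 largest falls without overlap, predicted genes aside, with called list members, gate and genotype genes and interaction calls. Up to 4 abundant members stand for lists without calls. The members and gene lists were chosen with earlier results of these data known. Sequences came from RefSeq tables (GRCm38.p6), with 11 Klra genes matched, aligned with Biopython 1.88. No coordinates of the deposited build are used here. Alternatives covered pseudocount, filter, scaling, trend, libraries in the fit and a replicate block. A few list members counted in the totals are not reported here by name.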

Additional observations from a re-analysis of the deposited data

Results flagged for a closer look

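The change from TP to TN cells differed between KO and WT mice for 3 genes, by the interaction term of the limma fit across all tested genes. The count of such genes was 0 at a pseudocount of 0.1 (754 at an unadjusted p under 0.05), and 1 with a replicate block, at a mean of at least 5 TPM or with only the compared libraries in the fit. All 3 were above 13 TPM in every KO TP library. In the other 15 libraries S100a9 and Ngp were at 0.48 TPM or less and Igha at 2.47 TPM or less, apart from 1 WT TN library with Igha at 11.0 TPM. Igha, an IgA heavy chain gene, had an interaction of -8.05 on the log2 scale (adjusted p 0.00925). S100a9, a calprotectin gene, had one of -5.38 (adjusted p 0.0115). Ngp, a neutrophil granule gene, had one of -4.49 (adjusted p 0.00925). In KO TP libraries S100a9 ran from 13.2 to 95.1 TPM and Ngp from 17.8 to 40.0 TPM, beside summed neutrophil markers of 71.1 to 253 TPM. The part of other cells in these values was not tested.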

How the results depend on the processing

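Between KO TN and TP cells the count of 63 called genes was 56 to 82 under changes of pseudocount, filter, scaling and trend or with a block, 33 with only the 6 compared libraries in the fit, 47 without markers of other cell types, and 40 to 50 with 1 library left out. A replicate block gave 82, with 60 of the 63 among them. Across all tested genes, the deviations of same-numbered KO TN and TP libraries had r of -0.0349 to 0.0207. For other numbers r was -0.0292 to 0.0477. A correlation over all genes cannot show whether same-numbered libraries share an animal. The labels do not say either, so the main fit was unpaired and the block is an alternative. With the block Itgam, not called otherwise, had an adjusted p of 0.0443, and the calls of Klrc3 (0.0726) and H2-Ab1 (0.0759) were lost. Between KO TN and SP cells the count of 5 became 8 with the block, 1 without an intensity trend, 2 with only the compared libraries and 3 to 9 with 1 library left out. Between KO SP and TP cells 24 became 41 with no filter, 15 with only the compared libraries, 15 without markers of other cell types and 19 to 27 with 1 library left out. In WT the count of 157 became 21 with only the compared libraries and 101 to 149 with 1 left out. The interaction count of 3 became 1 with the block, 0 at a pseudocount of 0.1 (754 at an unadjusted p under 0.05), 10 with no filter, 1 at a mean of at least 5 TPM, 7 without a trend, 1 with only the compared libraries, 0 without markers of other cell types (742) and 2 to 5 with 1 left out. The cause was not tested where a count moved. Of the 40 named genes called, 22 kept the call under every alternative run, 18 lost it under at least 1, and 0 of the 43 named genes reversed. Depth is unknown, so no limit on low values can be given.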
